A study of Mus musculus with 3 samples.

Results

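Metallothioneins bind zinc and copper in the cytosol, and a set of membrane transporters moves zinc into and out of intestinal epithelial cells. Here 7 genes of this system were followed in single-cell RNA sequencing of small-intestinal epithelium, sorted from mice by EpCAM: the metallothioneins Mt1, Mt2 and Mt3, the exporters Slc30a1 and Slc30a2, and the importers Slc39a4 and Slc39a5. They were chosen by name among 27998 annotated genes, and all 7 were found in the gene lists of the 3 libraries. The choice was made partly because Mt3 had stood out in one state of the adenoma cells, so the level of Mt3 there is given as a description only. There was 1 library, from 1 mouse, for each genotype, all C57BL/6 mice that had received 2 tamoxifen doses of 2 mg at 7 to 8 weeks of age. WT was the wild type, taken on day 21 after tamoxifen. LApc (Lgr5-EGFP-IRES-CreERT2 with Apc fl/fl) was taken on day 29. LApcL carried the same alleles and Lef1 fl/fl and was taken on day 21. The paper states that the Lef1 fl/fl line came from a mixed strain background and was backcrossed to C57BL/6 before use. The Cre recombinase of both lines was driven from the Lgr5 locus, so deletion started in Lgr5-positive stem cells and not in the whole epithelium. Both adenoma genotypes were taken when the mice met the criteria for euthanasia. Genotype, mouse and library cannot be told apart, nor, for LApc, can genotype and day.

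Mt1 and Mt2 are small cysteine-rich proteins whose transcription rises with zinc through the zinc-sensing factor Mtf1, which binds metal response elements in their promoters, and also with glucocorticoids. Mt3 is best known from the brain and Mt4 from stratified squamous epithelia. In enterocytes, Slc39a4 imports dietary zinc at the apical membrane, Slc39a5 imports zinc at the basolateral membrane and Slc30a1 exports it to the blood side, whereas Slc30a2 loads zinc into vesicles, including the granules of Paneth cells.

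In the GRCm38 annotation all 7 genes are protein coding. Mt3 (chr8:94152607-94154146), Mt2 (chr8:94172664-94173568) and Mt1 (chr8:94179082-94180327) lie in one cluster on the plus strand, downstream of Mt4 (chr8:94137197-94139031). Slc30a1 (chr1:191906767-191913247) and Slc30a2 (chr4:134343181-134354484) are on the plus strand, and Slc39a5 (chr10:128395931-128401229) and Slc39a4 (chr15:76612383-76617384) on the minus strand. The promoters of the 4 clustered genes are shown because Mt1 and Mt2 moved together across the libraries while Mt3 and Mt4 did not follow them. The bases are those upstream of the gene in the RefSeq table for GRCm38.p6, 5′ to 3′ on the plus strand, ending at the base before the annotated gene or the RefSeq start. Capitals mark the core of the metal response element, searched on both strands as TGCACNC or TGCGCNC.
Mt1 promoter, chr8:94178839-94179081: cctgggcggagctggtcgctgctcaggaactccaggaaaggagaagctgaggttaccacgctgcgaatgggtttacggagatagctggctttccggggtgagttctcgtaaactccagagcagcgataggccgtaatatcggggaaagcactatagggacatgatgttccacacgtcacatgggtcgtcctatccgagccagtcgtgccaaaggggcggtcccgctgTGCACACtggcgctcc
Mt2 promoter, chr8:94172368-94172617: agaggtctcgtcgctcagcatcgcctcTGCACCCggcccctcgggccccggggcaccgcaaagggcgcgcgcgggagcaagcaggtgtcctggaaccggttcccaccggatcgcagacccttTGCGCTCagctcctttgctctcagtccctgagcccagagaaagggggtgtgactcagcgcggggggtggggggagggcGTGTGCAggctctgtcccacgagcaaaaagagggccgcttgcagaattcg
Mt3 promoter, chr8:94152357-94152606: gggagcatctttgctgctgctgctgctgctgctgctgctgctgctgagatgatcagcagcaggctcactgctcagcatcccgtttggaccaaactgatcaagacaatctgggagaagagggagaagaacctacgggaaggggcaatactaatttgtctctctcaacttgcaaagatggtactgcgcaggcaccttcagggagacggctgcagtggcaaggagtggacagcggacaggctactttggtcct
Mt4 promoter, chr8:94136954-94137196: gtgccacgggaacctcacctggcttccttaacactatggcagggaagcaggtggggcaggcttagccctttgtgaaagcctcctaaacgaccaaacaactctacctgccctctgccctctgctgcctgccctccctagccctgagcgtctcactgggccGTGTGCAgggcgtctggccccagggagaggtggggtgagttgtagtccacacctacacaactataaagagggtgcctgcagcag
In the 250 bases before the RefSeq start, Mt2 held 3 matches, which began 50, 128 and 223 bases upstream. Mt1 held 1 match, at 23 bases, and Mt4 held 1 match, at 91 bases; the matches at 91 bases in Mt4 and at 50 bases in Mt2 were on the opposite strand, where the capitals read GTGTGCA. The Mt3 window held 0 matches to these letters. Slc30a1 held 1 match and Slc30a2 held 2, and of the 2 annotated starts of Slc39a5 1 held a match. Of 32851 mouse promoter windows of this length, 21.4% held at least 1 match, 5.17% at least 2 and 1.26% at least 3, so a single match was common. Bases downstream of the RefSeq start were not searched, so the counts, that of Mt1 included, can miss elements near a start further downstream. A match is a description of the letters and not evidence of binding.

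The libraries held 11453 to 17388 cell barcodes, and after filters on mitochondrial reads and doublets 10138 WT, 9601 LApc and 14394 LApcL cells remained, with median depths of 9713, 6132 and 10156 unique molecular identifiers (UMIs, 1 for each captured RNA molecule). LApc stood apart in RNA quality: 17.7% of its barcodes exceeded 20% mitochondrial UMIs, against 0.541% in WT and 2.38% in LApcL. Between 214 and 318 barcodes were shared by each pair of libraries. Lef1 was at 21.6 UMIs per 1000000 UMIs (CPM) in the adenoma-enriched cells of LApc and at 3.60 (393 UMIs) in the library labelled LApcL. Apc was at 49.1 and 37.4 in these cells, and a 3′ tag may lie outside the deleted exons of either gene.

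Cells were classed by clustering that left out all 7 genes, and each class was named from markers. Enterocyte-like cells (2818 WT, 3573 LApc and 1740 LApcL) comprised 3 clusters, named after leading genes as Apoa4-high, Reg1-high and Fabp6-high. Crypt cells (2707, 2038 and 1292) were the part of the Wnt/transit-amplifying cluster present in all libraries after a correction that aligns them. Adenoma-enriched cells were the part that was nearly absent from WT (3 cells) and held 1258 LApc and 9079 LApcL cells. Without the correction, the crypt subclusters held only 13 and 4 LApc and 27 and 7 LApcL cells, so the shared crypt class depends on it. Paneth-like cells numbered 427, 139 and 176, with Defa24 at 247199, 254117 and 244473 CPM. Clustered alone, the LApc adenoma cells gave a Wfdc18-high state (939 cells), an S100g-high state (264) and an S100g-low state (55), and the LApcL adenoma cells an S100g-high (5709) and an S100g-low state (3370). These states were split by a limit on S100g chosen after the values were seen, and they may be states of 1 mouse each.

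The level of a gene in a class is given throughout in CPM, its UMIs per 1000000 UMIs of that class, from 3′-end tags that do not scale with transcript length. Without replicates there is no test of any difference between genotypes, and the 95% intervals in brackets, exact Poisson for levels and exact binomial for ratios, cover counting error only. A member was counted as higher or lower when it reached 10 CPM on either side, differed by 2-fold or more and had a ratio interval that left out equality. CPM cannot separate less RNA of a gene from more RNA of all others.

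Mt1 was the most abundant of the 7 genes in the crypt, enterocyte-like and Paneth-like cells of WT. Its WT level was 619 CPM [610, 628] in enterocyte-like cells, 558 [550, 566] in crypt cells and 77.7 [73.8, 81.7] in Paneth-like cells. In LApc the level was 2621 CPM [2600, 2642] in enterocyte-like cells, 1413 [1394, 1433] in crypt cells, 884 [866, 903] in adenoma-enriched cells and 268 [247, 290] in Paneth-like cells. The order of the classes was thus the same in WT and LApc, with LApc the higher in each. In LApcL the adenoma-enriched cells led with 892 CPM [887, 898], followed by crypt cells at 746 [731, 762], enterocyte-like cells at 642 [629, 654] and Paneth-like cells at 214 [199, 229]. The adenoma-enriched levels of LApc and LApcL overlapped within counting error, whereas those of the other 3 classes did not.

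**Figure D1:**
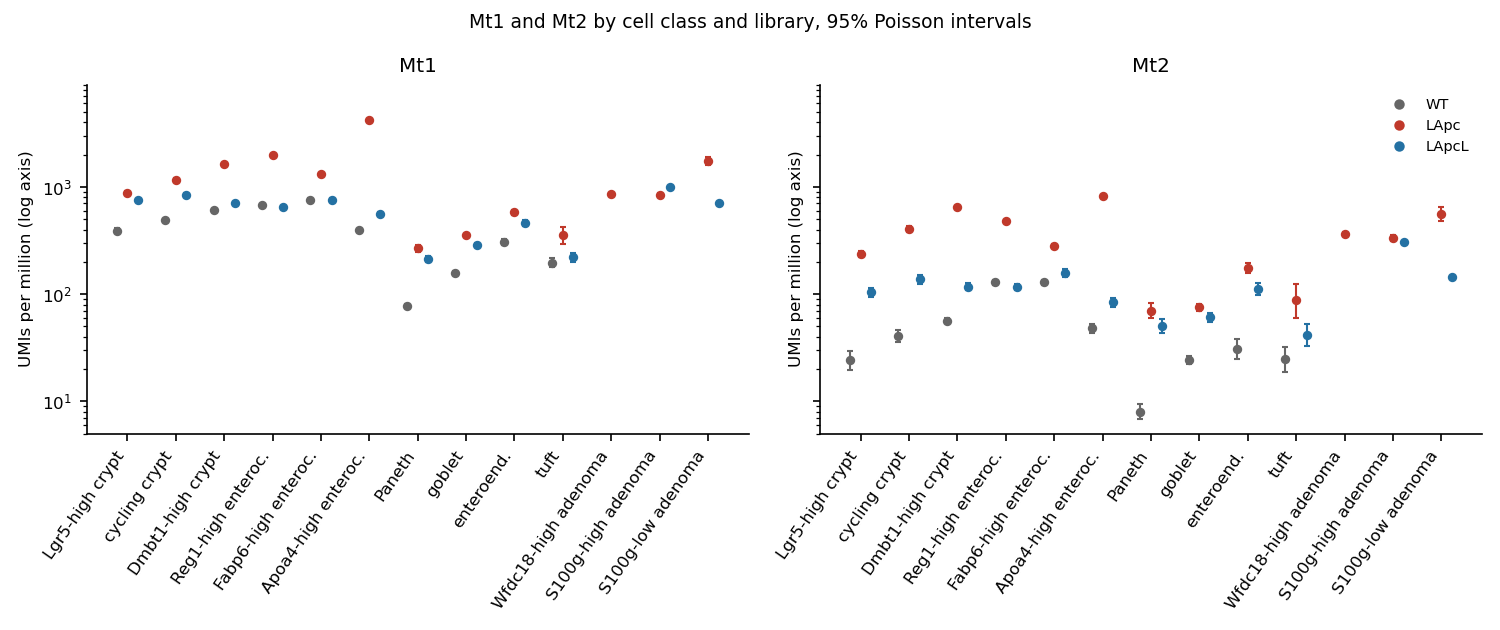
Levels of Mt1 (left) and Mt2 (right) by cell type, with the crypt and enterocyte-like cells split into their clusters and the adenoma cells into their states (horizontal axis), in CPM on a log axis, with 1 point per library (WT, LApc, LApcL) and bars for the exact 95% Poisson interval, which covers counting error only. LApc lies highest in the crypt and enterocyte-like clusters, with Mt1 at 4189 in Apoa4-high cells, and Paneth-like cells lie below these clusters in each library.

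Mt2 followed Mt1 in the direction of each difference from WT that passed the threshold, and its ratios were larger. Mt2 was at 49.2 CPM [46.8, 51.8] in WT crypt cells, at 530 [518, 542] in LApc and at 118 [112, 124] in LApcL. In enterocyte-like cells it was at 105 CPM [101, 108] in WT, 555 [546, 565] in LApc and 113 [108, 119] in LApcL. In Paneth-like cells the values were 8.02 CPM [6.81, 9.39], 70.4 [59.9, 82.1] and 50.5 [43.5, 58.3]. LApc was therefore the highest library in all 3 classes, and LApcL lay near WT in enterocyte-like cells only.

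In crypt cells of LApc against WT, 4 of the 7 members reached 10 CPM and 2 were higher, Mt1 by a log2 ratio of 1.34 [1.31, 1.37] and Mt2 by 3.43 [3.35, 3.51]. Of 7565 genes tested in that comparison, 2.14% passed the same threshold in either direction, 1.27% higher and 0.872% lower. In LApcL against WT, 1 of 5 members tested was higher, Mt2 at 1.26 [1.16, 1.36], against 2.95% of all genes (1.48% higher, 1.47% lower), and Mt1 differed by 0.42. The crypt values did not rest on 1 kind of crypt cell. Among Dmbt1-high, Lgr5-high and cycling Lgr5-positive crypt cells, Mt2 was higher than in WT by 3.29 to 3.53 in LApc and by 1.05 to 2.1 in LApcL, and Mt1 by 1.16 to 1.43 in LApc. In these 3 groups 2.08%, 4.41% and 4.1% of all genes passed for LApc, and 2.05%, 3.91% and 3.54% for LApcL. Mt1 in Lgr5-high cells of LApcL, at 0.93 [0.84, 1.02], lay just under the threshold. Summed transcripts of adenoma genes such as Sox17 and Notum were at 102 CPM in LApcL crypt cells. They were at 14.9 in LApc and 3.52 in WT crypt cells, and at 916 in LApcL adenoma-enriched cells. The part of RNA transferred from other cells in the crypt Mt1 and Mt2 values was not tested.

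In enterocyte-like cells of LApc against WT, 2 of 6 members tested were higher, Mt1 by 2.08 [2.06, 2.11] and Mt2 by 2.41 [2.35, 2.47], against 3.67% of all genes (2.24% higher, 1.43% lower). The difference was graded over the clusters. Mt1 rose from 395 CPM in WT to 4189 in LApc in Apoa4-high cells, the cluster led by lipid-absorption genes, a log2 ratio of 3.41 [3.36, 3.46]. In Reg1-high cells it rose from 682 to 1988, a ratio of 1.54 [1.51, 1.58], and in Fabp6-high cells, which express the ileal bile acid transport genes, the levels were 761 and 1323, a ratio of 0.80 [0.75, 0.85] that did not reach the threshold. Mt2 was higher in all 3 clusters, by 4.10, 1.89 and 1.12. The background in the Apoa4-high, Reg1-high and Fabp6-high comparisons was 7.25%, 3.31% and 3.54% of all genes.

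This gradient turned around the order of the enterocyte clusters in LApc. In WT, Mt1 was lower in Apoa4-high than in Reg1-high cells, by a log2 ratio of -0.79 [-0.84, -0.73], and in LApcL the ratio was -0.21 [-0.28, -0.15]. In LApc it was 1.08 [1.05, 1.10]. Thinned to 3000 UMIs a cell, the median enterocyte-like cell held 1 Mt1 UMI in WT, 5 in LApc and 1 in LApcL, and the cell at the 90th percentile held 4, 19 and 4. The difference was therefore seen in the median cell as well as in the highest cells. The Apoa4-high cells of LApc were shallower (median 4899 UMIs, against 8804 in WT and 6892.5 in LApcL) and had more mitochondrial UMIs (median 11%, against 8.64% in both others), and the part of these in the result was not tested. With the mitochondrial limit at 10% in place of 20%, the enterocyte-like ratio of Mt1 was 1.69.

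In LApcL the enterocyte-like levels of Mt1 and Mt2 differed from WT by 0.05 and 0.12 on the log2 scale, and no metallothionein passed the threshold in the Apoa4-high, Reg1-high or Fabp6-high cells, where 6.26%, 3.2% and 7.19% of all genes did. Set directly against LApc, Mt1 was lower in LApcL enterocyte-like cells by -2.03 [-2.06, -2.00] and Mt2 by -2.29 [-2.36, -2.22], against 3.34% of all genes (2.15% higher, 1.2% lower). In crypt cells Mt2 was lower by -2.17 [-2.25, -2.09], against 1.72% of all genes (0.781% higher, 0.94% lower), and Mt1 by -0.92, just under the threshold. In Paneth-like cells 0 of 6 members tested passed, against 6.65% of all genes (3.4% higher, 3.25% lower).

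Paneth-like cells need separate reading, because all of their RNA differed in depth between the libraries. Their median depth was 43765 UMIs in WT, 14504 in LApc and 16664.5 in LApcL, and the median log2 ratio of all genes tested was 0.71 for LApc and 0.86 for LApcL against WT, so most genes had a higher CPM in these cells than in WT. This shift depended on how the cells were chosen: with more doublets removed it was 2.1 in LApcL (78 cells left, 94.4% of all genes past the threshold), and with classes from marker scores it was -0.08 in LApc (325 cells, 7.69%), where Mt2 was at 2.06 and Mt1, at 0.70, did not pass. Of 3 members tested in LApc, Mt1 was higher by 1.79 [1.65, 1.92] and Mt2 by 3.13 [2.80, 3.46], against 23.7% of all genes (23.5% higher, 0.23% lower). Of 5 members tested in LApcL, 4 were higher: Mt1 by 1.46 [1.33, 1.58], Mt2 by 2.65 [2.34, 2.97], Mt3 by 3.09 [2.32, 3.89] and Slc39a4 by 1.00 [0.47, 1.52], against 36.5% of all genes (36.0% higher, 0.501% lower). With size factors that remove the shift of the median, Mt2 was the 1 member past the threshold in LApcL, at 1.81 (edgeR's trimmed mean of M values) and 1.82 (DESeq2). Mt1 was then at 0.61 and 0.63, Slc39a4 at 0.16 and 0.18, and Mt3, at 2.25 and 2.26, no longer reached 10 CPM. In LApc, Mt1 was at 1.00 and 1.01 and Mt2 at 2.35 under both. Mt2 was thus the member whose Paneth-like difference from WT exceeded the shift most clearly. Size factors do not remove RNA transferred from other cells. Over all kept cells, Mt2 reached 416 CPM for the LApc library and 203 for LApcL, against 54.2 for WT. Summed adenoma transcripts in Paneth-like cells were at 47.1 CPM for LApc and 130 for LApcL, against 9.37 for WT. How much of the Paneth-like Mt1 and Mt2 was transferred RNA was not tested.

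Mt1 and Mt2 therefore changed in unequal proportion. Mt2 made up 8.11% [7.72, 8.51] of the summed Mt1 and Mt2 UMIs in WT crypt cells, 27.3% [26.8, 27.8] in LApc and 13.6% [13.0, 14.3] in LApcL. In enterocyte-like cells the share was 14.5% [14.0, 14.9] in WT, 17.5% [17.2, 17.8] in LApc and 15% [14.4, 15.7] in LApcL. In Paneth-like cells it was 9.36%, 20.8% and 19.1%. The share was thus lowest in WT in all 3 classes, most unequal in the crypt and least in enterocyte-like cells, where WT and LApcL overlapped within counting error. Adenoma-enriched cells had a share of 29.2% [28.4, 30.0] in LApc, near that of the crypt cells of the same library, and of 21.5% [21.3, 21.8] in LApcL, above that of its crypt cells. The share takes both genes from the same cells and totals, so library depth and RNA of other genes cancel in it. Mt1 and Mt2 RNA transferred from other cells does not cancel, and its part in the shares was not tested.

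**Figure D2:**
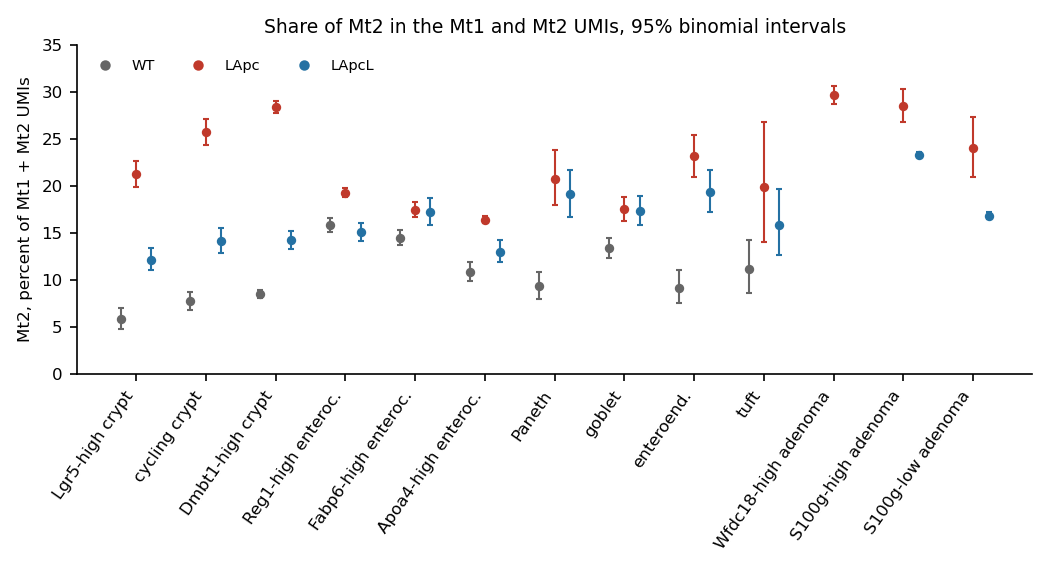
Mt2 UMIs as a percentage of the summed Mt1 and Mt2 UMIs (vertical axis) by cell type, crypt and enterocyte-like cluster and adenoma state, 1 point per library with exact 95% binomial intervals for counting error. In Dmbt1-high crypt cells the WT point lies at 8.48% and the LApc point at 28.4%, near the LApc Wfdc18-high adenoma point at 29.7%.

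The share of single cells that held both transcripts differed between the libraries. After thinning to 3000 UMIs, 9.12% of WT crypt cells held at least 1 UMI of each gene, against 55.6% in LApc and 21.5% in LApcL. In enterocyte-like cells it was 13.5%, 48.5% and 17.6%. Spearman's rho between the Mt1 and Mt2 UMIs of thinned cells was 0.24, 0.52 and 0.25 in crypt cells of WT (n = 2707), LApc (n = 1990) and LApcL (n = 1286), and 0.42, 0.59 and 0.34 in enterocyte-like cells (n = 2818, 3252 and 1723). These cells share a library, so the values describe each library and are no evidence on the genotype. The share of cells with both genes also grows with their levels, as does rho in sparse counts.

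Within the adenoma cells Mt1 and Mt2 differed little between the large states of LApc. Mt1 was at 863 CPM [842, 884] in Wfdc18-high and 836 [798, 874] in S100g-high cells of LApc, and Mt2 at 365 [351, 379] and 335 [311, 360]. In LApcL, S100g-high cells had 999 CPM of Mt1 and 304 of Mt2, and S100g-low cells 711 and 144. Mt2 was thus lower in the S100g-low than in the S100g-high cells of LApcL, by -1.08 [-1.12, -1.04], the only metallothionein member past the threshold in that comparison, in which 5.69% of all genes passed. The 55 S100g-low cells of LApc, led by the stomach gene Atp4a, had 1755 CPM [1611, 1909] of Mt1 and 556 [476, 645] of Mt2. Their Mt2 level rested largely on 1 cell, which held 67 of the 173 Mt2 UMIs. After thinning, 44.0% of them held a Mt2 UMI, against 46.1% of S100g-high and 43.1% of Wfdc18-high cells of LApc, so they did not stand apart in the share of cells with Mt2.

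Against crypt cells of the same library, adenoma-enriched cells had less Mt1 and Mt2 in LApc and more in LApcL. The log2 ratios in LApc were -0.68 for Mt1 and -0.54 for Mt2, under the threshold, and in LApcL 0.26 for Mt1 and 1.05 [0.98, 1.13] for Mt2, which passed. Between the adenoma-enriched cells of the 2 genotypes Mt1 differed by 0.01 [-0.02, 0.04]. This pooled value joins different states, and a state name did not mark the same cells in both genotypes. The S100g-low cells of LApc were led by Atp4a, and those of LApcL by Mt4, Ly6d or Cd74. The LApcL cells led by Atp4a (1455) fell in the S100g-high state, so the S100g-low ratios below set unlike cells side by side. In S100g-high cells Mt1 was above LApc in LApcL, by 0.26 [0.19, 0.32], and 0 of 4 members tested passed the threshold, against 4.7% of all genes. In S100g-low cells, of which LApc had 55, 2 of 5 members tested were lower in LApcL, Mt1 by -1.30 [-1.43, -1.18] and Mt2 by -1.95 [-2.17, -1.72], against 27.8% of all genes (7.72% higher, 20.1% lower).

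Mt3 was near 0 in crypt and enterocyte-like cells and higher in goblet-like cells, enteroendocrine-like cells (13.5, 40.0 and 18.2 CPM in WT, LApc and LApcL) and a subset of the LApc adenoma cells. In the enteroendocrine-like cells of LApc, 2 of 513 cells held 36 of the 75 Mt3 UMIs, and 5.26% of the cells held any, against 11% in WT. It was at 0.323 CPM in WT, 0.603 in LApc and 0.326 in LApcL crypt cells (10, 9 and 4 UMIs), and at 0.436, 0.802 and 0.464 in enterocyte-like cells (13, 18 and 7 UMIs). In goblet-like cells it was at 23.6 CPM [21.7, 25.7] in WT, 16.4 [13.8, 19.4] in LApc and 36.2 [31.9, 40.9] in LApcL. These cells held 70.6% of all Mt3 UMIs of the WT library, where the cells of unnamed clusters held a further 17.0% (13.5 CPM). In LApcL they held 37.2%, the S100g-high adenoma cells 35.8% and the S100g-low ones 9.59%, at lower levels in many more cells. Thinned to 3000 UMIs, 6.08% of WT goblet-like cells held a Mt3 UMI, against 0.148% of WT crypt cells, with median depths of 8544 and 10737 UMIs before thinning, so the crypt share marks the background and the goblet share lies above it.

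In LApc, 75.6% of the Mt3 UMIs came from the Wfdc18-high adenoma state, which held 9.78% of the cells. Mt3 was at 124 CPM [117, 133] in this state (925 UMIs), at 5.81 [3.09, 9.93] in S100g-high cells of LApc and at 3.57 [3.14, 4.05] in S100g-high cells of LApcL. Since the gene was chosen for this pattern, the log2 ratios that follow are descriptions: 4.42 between the Wfdc18-high and S100g-high states of LApc (0.52 where adenoma cells were taken by 3 or more adenoma transcript UMIs), 7.29 between adenoma-enriched and crypt cells of LApc, and -5.04 between the adenoma-enriched cells of LApcL and LApc. Of all genes, 9.19% passed between the states of LApc (6.49% higher, 2.7% lower), 21.2% between adenoma-enriched and crypt cells (15.9% higher, 5.33% lower) and 9.07% between the genotypes (0.876% higher, 8.19% lower).

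The Mt3 signal of the Wfdc18-high state sat in few cells, a pattern singled out after its values were seen. Of 939 cells, 165 held any Mt3 UMI, 70 held 3 or more and 21 held 10 or more, and the highest held 101. The 70 cells carried 86.4% of the Mt3 UMIs of the state and the 21 cells 59.7%. Of the thinned cells, 11.2% held a Mt3 UMI, whereas the same mean spread evenly over cells (Poisson) would give 40.8%. The level of the state is therefore an average over a small Mt3-rich group and a large Mt3-poor remainder. It was uneven over the 3 subclusters of the state as well: 213 CPM in the cells led by Npy, Lcn2 and Nupr1 (480 cells), 101 in those led by Vim and Cyp2e1 (211) and 17.1 in the cycling cells led by Tff1 and Myl7 (248). Without the 21 cells and the cells of other classes with 10 or more Mt3 UMIs, the ratio of the Wfdc18-high over the S100g-high state was 3.13.

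The Mt3-rich cells of LApc also held nearly all Mt4 of their state. Of 314 Mt4 UMIs in Wfdc18-high cells, 287 (91.4%) were in the 70 cells with 3 or more Mt3 UMIs. Mt4 was at 622 CPM [553, 699] in the 70 cells and at 2.95 [1.75, 4.66] in the 774 cells of the state with no Mt3 UMI. Few cells set the former level: 18 cells of the state held 3 or more Mt4 UMIs and 88.9% of its Mt4, and 10 cells held 77.1%. Mt1 was at 551 CPM [485, 623] in the former and 870 [847, 893] in the latter, and Mt2 at 406 [350, 468] and 352 [337, 367]. Mt2 was thus not lower in the Mt3-rich cells. As a group they also had more Chgb, which encodes a secretory granule protein of endocrine cells, at 275 CPM [230, 328] against 21.3 [17.8, 25.3], and less of the adenoma transcript Sox17, at 28.2 [15, 48.2] against 105 [97.3, 114]. The Chgb difference came mainly from the subcluster led by Npy, whose 52 Mt3-rich cells held 122 of the 127 Chgb UMIs. In the 14 Mt3-rich cells of the subcluster led by Vim, Chgb was at 39.5 CPM [10.8, 101] against 25.5 [17.2, 36.4] and Sox17 at 49.4 against 52.7, which overlapped within counting error. The median depth of the 70 cells was 6125 UMIs, against 7551.

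Mt4 and Mt3 mostly parted in LApcL, where the 2.62% of adenoma-enriched cells with Mt3 held 4.61% of the Mt4 UMIs. There Mt4 was the leading gene of the largest S100g-low subcluster (2016 cells), at 136 CPM [131, 140], and Mt3 was at 1.60 CPM [1.16, 2.14] in the same cells. Mt4 UMIs were found in 1210 of the 2016 cells (60.0%) and 568 held 3 or more, whereas 0 held 3 or more Mt3 UMIs. In LApc 21 of the 480 cells of the Mt3-rich subcluster held Mt4. In another LApcL subcluster (1116 cells), the 34 cells with Mt3 held 24.6% of the 126 Mt4 UMIs. That share rested largely on 1 cell, which held 19 of their 31 Mt4 UMIs. A lesser excess was seen in other S100g-high subclusters of LApcL. In 1 of them (1577 cells) the 3.68% of cells with Mt3 held 12.1% of the Mt4 UMIs. In another (1561 cells) the 3.84% with Mt3 held 9.68%. In the largest S100g-low subcluster the 2.03% of cells with Mt3 held 2.54%. The pair of neighbouring genes was thus read together in few cells of LApcL, and apart in many. Mt4 was also at 3.25 to 17.3 CPM in the other named classes of LApcL, in which the summed adenoma transcripts were at 102 to 534 CPM, against 916 in the adenoma-enriched cells, and the part of transferred RNA in these levels was not tested.

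**Figure D3:**
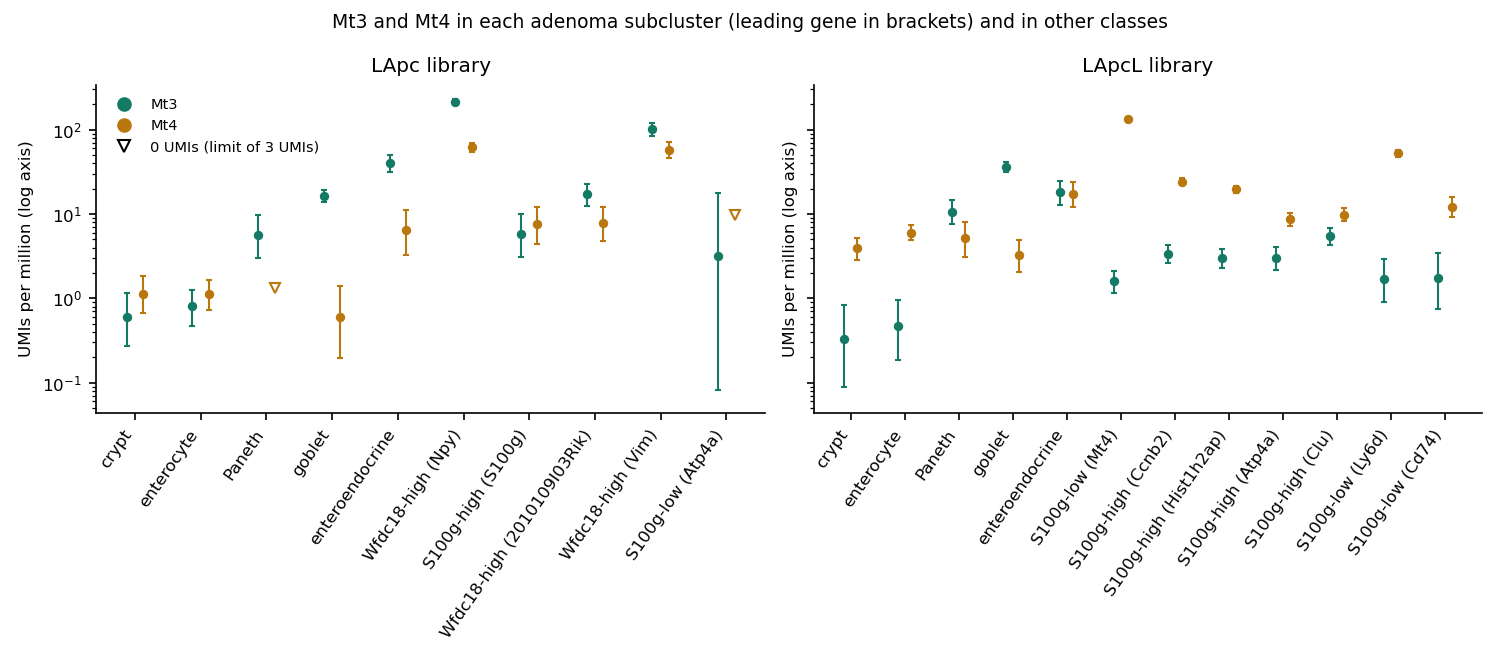
Levels of Mt3 and Mt4 in the LApc library (left) and the LApcL library (right) by cell class and adenoma subcluster, named by state with a leading gene in brackets, in CPM on log axes with exact 95% Poisson intervals; open triangles mark the level of 3 UMIs where 0 were found. Mt3 is highest in the LApc subcluster led by Npy (213) and Mt4 in the LApcL subcluster of 2016 cells (136), where Mt3 is at 1.60.

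In Paneth-like cells Mt3 was at 1.24 CPM [0.796, 1.85] in WT, 5.72 [3.04, 9.78] in LApc and 10.6 [7.53, 14.5] in LApcL. It was found in 20, 11 and 28 cells, and the highest cell held 4 UMIs. In LApcL these cells also held the adenoma transcripts at 130 CPM. The Mt3 level of the adenoma-enriched cells of that library was 2.86 CPM [2.55, 3.19]. Its goblet-like cells, 6.75% of its cells, held 37.2% of its Mt3 UMIs. The source of the few Mt3 UMIs of the Paneth-like cells was not tested.

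Slc30a1, the exporter to the blood side, was higher in enterocyte-like cells than in crypt, Paneth-like and adenoma-enriched cells. Enterocyte-like cells held 64.5% of its UMIs in WT and 68.0% in LApc. In LApcL they held 20.1%, and the S100g-high adenoma cells 42.4%. The enterocyte-like level of Slc30a1 was 28.5 CPM [26.6, 30.5] in WT, 18.8 [17.1, 20.7] in LApc and 14.2 [12.3, 16.2] in LApcL. In crypt, Paneth-like and adenoma-enriched cells Slc30a1 lay between 1.04 and 6.71 CPM in all libraries, under the 10 CPM limit. Of the 6 members tested in enterocyte-like cells of LApcL against WT, Slc30a1 was the 1 past the threshold, lower by -1.01 [-1.23, -0.79], where 3.64% of all genes passed (2.0% higher, 1.64% lower). It lay so near the limit that 6 of the alternative settings took it out, 5 of them with ratios of -0.99 to -0.86.

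The clusters located this difference. In Fabp6-high cells Slc30a1 fell from 54.6 CPM [49.8, 59.8] in WT to 24.8 [20.7, 29.5] in LApc and 20.9 [16.0, 26.8] in LApcL, log2 ratios of -1.14 [-1.43, -0.86] and -1.39 [-1.80, -1.0], against 3.54% and 7.19% of all genes. In Apoa4-high cells the levels were 23.7, 20.7 and 15.6 CPM, and in Reg1-high cells 13.6, 13.8 and 10.5, without a difference past the threshold. In Fabp6-high and Apoa4-high cells Slc30a1 was thus highest in WT, whereas Mt1 was highest in LApc in each cluster. Fabp6 itself, a marker of the distal small intestine, was at 17107 CPM in WT enterocyte-like cells and at 5068 and 3497 in LApc and LApcL, and its part in the Slc30a1 values was not tested.

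Slc30a2, the vesicular transporter, was at 24.3 CPM [22.5, 26.1] in WT, 25.3 [23.3, 27.5] in LApc and 20.5 [18.3, 22.9] in LApcL enterocyte-like cells. Its level was highest in Apoa4-high cells, at 34.3, 48.3 and 36.7 CPM, and lower in Reg1-high cells, at 12.1, 7.88 and 9.41. The log2 ratio of Apoa4-high over Reg1-high cells was 1.5 in WT, 2.61 in LApc and 1.96 in LApcL, past the threshold in each, where 17.4%, 26.6% and 20.8% of all genes passed. This order was the same in the 3 libraries.

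In Paneth-like cells, whose granule zinc depends on this transporter, Slc30a2 was at 8.33 CPM [7.10, 9.73] in WT, 8.36 [5.03, 13.0] in LApc and 10.9 [7.76, 14.8] in LApcL. Defensin transcripts fill much of the total of these cells and lower the CPM of all other genes. Counted per cell, WT Paneth-like cells held 0.377 UMIs and WT enterocyte-like cells 0.257, at median depths of 43765 and 9712.5 UMIs. Under the size factors of edgeR, Slc30a2 was highest in Paneth-like cells of WT and LApcL. The ranking of these 2 classes therefore depends on the scale, CPM or UMIs per cell.

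Slc30a2 was the other member that set the LApc adenoma cells apart. In adenoma-enriched cells the level was 44.7 CPM [40.6, 49.0] for LApc and 14.0 [13.3, 14.7] for LApcL, against 6.63 [5.39, 8.07] and 10.2 [8.48, 12.1] in the crypt cells of the same libraries. Within LApc it was at 54.7 CPM in Wfdc18-high cells and 17.0 in S100g-high cells, a log2 ratio of 1.69 [1.21, 2.21]. The subcluster led by Vim and Cyp2e1 reached 112 CPM [94.7, 131], above the 42.1 and 41.6 of the other Wfdc18-high subclusters. Unlike Mt3, it was spread over cells: 15.3% of thinned Wfdc18-high cells held a UMI, where an even spread would give 16.5%. The ratio of LApcL over LApc adenoma-enriched cells was -1.67 [-1.82, -1.52]. It was -0.67 when the adenoma cells were delimited without the correction that aligns the libraries. That setting took 3333 LApc and 10614 LApcL cells, so it pooled many crypt-like cells with the adenoma cells. Among them was a subcluster with Dmbt1 among its leading genes (1314 LApc cells), with summed adenoma transcripts at 27.0 CPM.

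Slc39a4, the apical importer, did not differ past the threshold between the genotypes in crypt or enterocyte-like cells. The enterocyte-like level was 82.8 CPM [79.6, 86.2] for WT, 84.4 [80.7, 88.3] for LApc and 83.5 [79.0, 88.3] for LApcL. The log2 ratios against WT were 0.03 [-0.06, 0.11] and 0.01 [-0.09, 0.11]. In Apoa4-high cells it was at 123, 130 and 125 CPM, and in Reg1-high cells at 53.5, 49.5 and 55.2, ratios of 1.18 to 1.40 between the clusters that passed in each library. The levels of Slc39a4 were thus equal within counting error across the libraries and separated the clusters, in the same cells in which Mt1 differed between LApc and WT by a log2 ratio of 2.08.

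In crypt cells Slc39a4 was at 33.8 CPM [31.8, 35.9] in WT, 27.7 [25.1, 30.5] in LApc and 34.4 [31.2, 37.8] in LApcL. In adenoma-enriched cells it was at 57.4 [52.8, 62.3] and 52.1 [50.7, 53.4]. The adenoma over crypt ratio was 1.05 [0.86, 1.24] in LApc, past the threshold, and 0.60 in LApcL. Over the adenoma subclusters of both genotypes the values ran from 34.3 to 75.3 CPM.

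Slc39a5, the basolateral importer, was the member that distinguished adenoma from crypt cells in both genotypes. In crypt cells it was at 94.1 CPM [90.8, 97.6] in WT, 90.9 [86.1, 95.9] in LApc and 79.9 [75.0, 85.1] in LApcL. In adenoma-enriched cells it was at 6.41 [4.94, 8.19] in LApc and 12.0 [11.4, 12.7] in LApcL. It was therefore lower in the adenoma cells by log2 ratios of -3.83 [-4.21, -3.46] and -2.74 [-2.86, -2.61], with the crypt cells of the 3 libraries close to each other. In all, 3 members were higher and 1 lower of 6 tested in LApc, against 15.9% of all genes higher and 5.33% lower. In LApcL it was 1 higher and 1 lower of 5 tested, against 11.7% of all genes, 7.43% higher and 4.3% lower.

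The residual Slc39a5 of the adenoma cells was unevenly spread in LApcL. It was at 24.6 CPM [23.1, 26.2] in S100g-low cells and 4.59 [4.10, 5.12] in S100g-high cells, a ratio of 2.43 [2.24, 2.61]. The 3 S100g-low subclusters were at 25.7, 24.3 and 19.1 CPM and the 4 S100g-high subclusters at 3.98 to 5.08. In LApc the S100g-high cells were at 3.13 CPM [1.26, 6.45] and the Wfdc18-high cells at 7.26 [5.46, 9.48]. Both were under the 10 CPM limit, so the difference between states was read in LApcL only. Slc39a4 was at 43.3 to 64.3 CPM in all 5 states.

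In enterocyte-like cells Slc39a5 reached 174 CPM [169, 179] in WT, 162 [157, 167] in LApc and 156 [150, 162] in LApcL, which was the highest of the 4 transporters in each library. It was at 171, 128 and 113 CPM in Apoa4-high cells and at 171, 189 and 179 in Reg1-high cells. In Paneth-like cells it was at 8.18, 14.5 and 8.14. None of these differences between genotypes reached the threshold.

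**Figure D4:**
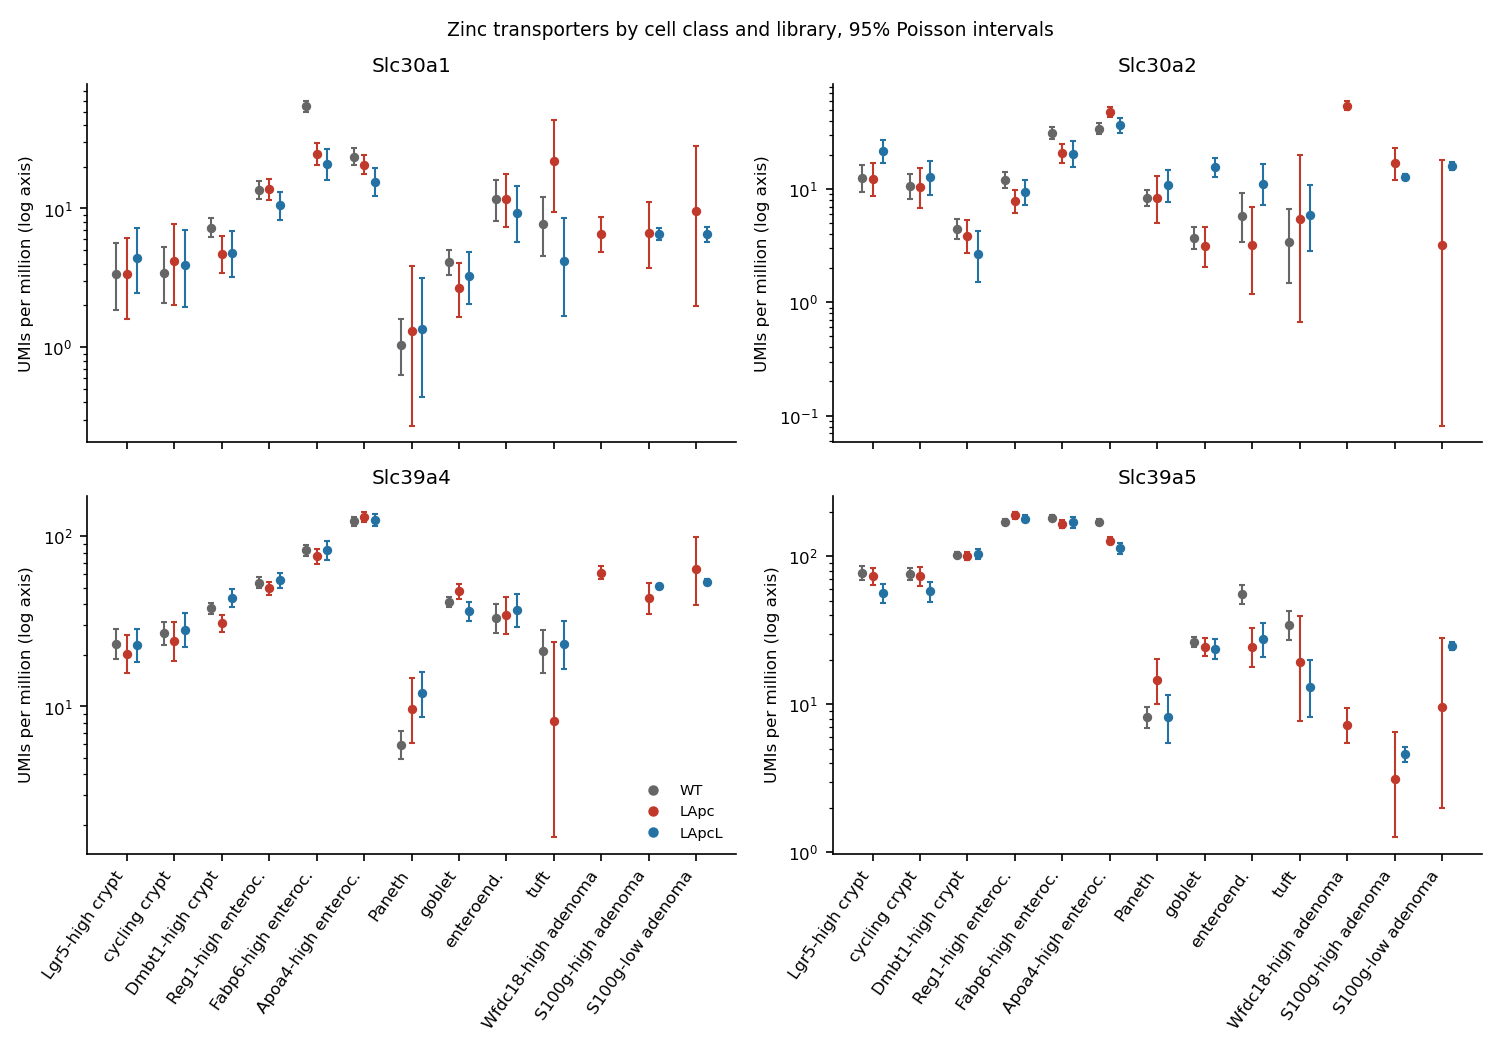
Levels of Slc30a1, Slc30a2, Slc39a4 and Slc39a5 by cell type, crypt and enterocyte-like cluster and adenoma state (horizontal axis) in CPM on log axes, 1 point per library (WT, LApc, LApcL) with exact 95% Poisson intervals. The intervals of the libraries overlap for Slc39a4 in each enterocyte-like cluster, Slc30a2 lies at 54.7 in Wfdc18-high cells, and Slc39a5 lies lower in the adenoma states than in the crypt clusters.

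Of the 7 members, the number that reached 10 CPM on either side was 4 and 5 in the crypt comparisons with WT, 6 in each of the enterocyte-like ones, 3 and 5 in the Paneth-like ones and 6 between the adenoma-enriched cells. Between genotypes, Slc30a1 was left out by this limit in all crypt and Paneth-like comparisons and Mt3 in all crypt and enterocyte-like ones.

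**Figure D5:**
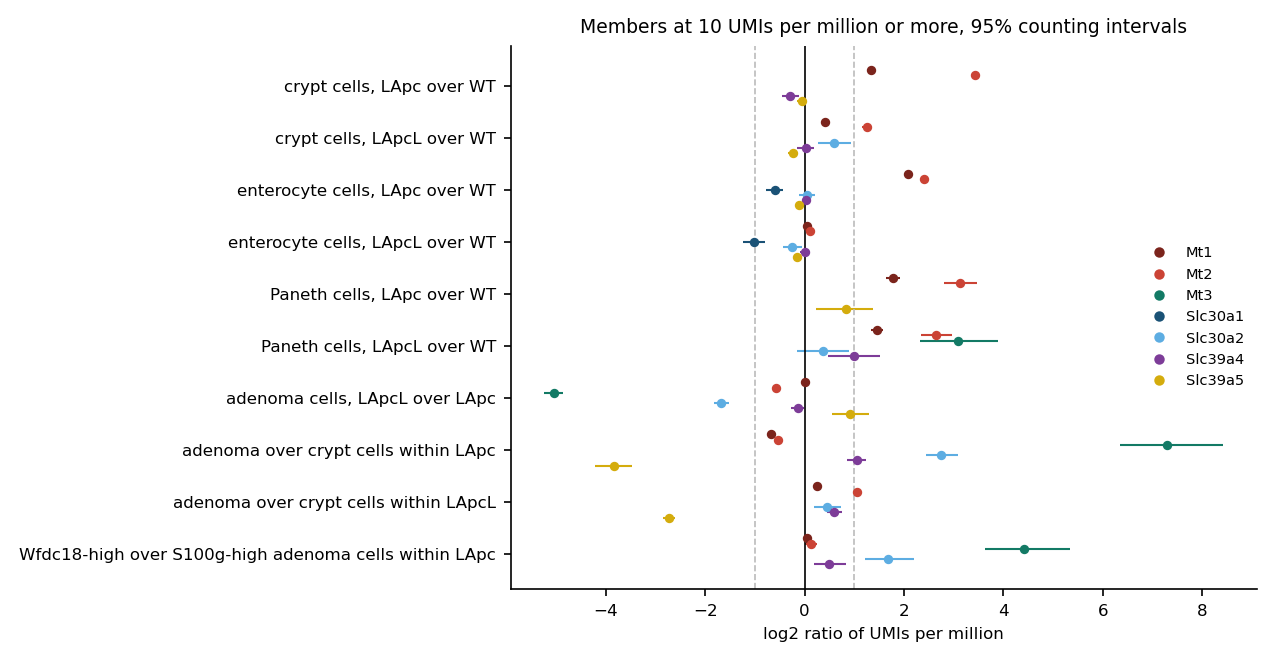
Log2 ratios of the members (horizontal axis) in each comparison, with exact 95% binomial intervals for counting error and the 2-fold limits drawn as lines; members under 10 CPM on both sides are not drawn. Mt1 and Mt2 lie past the upper limit in LApc over WT in crypt, enterocyte-like and Paneth-like cells, and Slc39a5 past the lower limit in adenoma-enriched over crypt cells of both genotypes.

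The other genes of zinc handling seldom passed between genotypes in crypt and enterocyte-like cells. Of a list of 22 further metallothionein and zinc transporter genes with Mtf1, 13 were tested in crypt cells of LApc against WT and 0 passed, with a median log2 ratio of 0.23 against 0.01 for all genes. In LApcL, 0 of 14 passed. In enterocyte-like cells of LApc, 1 of 13 passed, Slc30a10, a manganese exporter, at 33.5 CPM against 13.0 in WT, a ratio of 1.36 [1.18, 1.54], and 0 of 13 passed in LApcL. Mtf1 itself was at 29.3, 26.8 and 27.3 CPM in WT, LApc and LApcL enterocyte-like cells and at 15.8, 14.6 and 13.4 in crypt cells, without a difference past the threshold. The list was chosen with results of these data known, so its counts are descriptions.

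In adenoma-enriched against crypt cells of LApc, 3 of 16 list genes tested were higher: Mt4 by 4.86, the plasma membrane zinc importer Slc39a6 by 1.72 (11.7 against 3.55 CPM) and the importer Slc39a10 by 1.41 (16.9 against 6.36). In LApcL, 1 of 15 was, Mt4 by 3.67. Between the adenoma-enriched cells of the genotypes 0 of 16 passed. In Paneth-like cells, Slc39a1 passed in both genotypes, by 1.18 and 1.47, and Slc39a14 in LApc, by 1.03, where the medians of all genes were 0.71 and 0.86.

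Genes of other responses that can raise metallothioneins were counted in the same way. Of 6 glucocorticoid-responsive genes, Fkbp5 and Sgk1 were higher in crypt cells of both genotypes, by 1.95 and 1.82 in LApc and by 1.65 and 1.05 in LApcL, with 5 tested in each. In enterocyte-like cells Fkbp5 was higher by 1.97 and 1.54 and Per1 by 1.48 and 1.21. Sgk1 passed there in LApc, at 1.10, and was at 0.86 in LApcL. In adenoma-enriched over crypt cells Fkbp5 and Sgk1 were instead lower, by -2.48 and -1.41 in LApc and by -1.69 and -1.54 in LApcL. Tsc22d3 was also lower there in LApcL, by -1.26, and 0 of the 5 tested were higher in either genotype. The part of these genes in the Mt1 and Mt2 values was not tested. Of 10 dissociation and stress genes, 7 were tested in crypt and in enterocyte-like cells, and they went both ways. In crypt cells the heat shock genes Hspa1a, Hspa1b, Hsp90aa1 and Dnajb1 were lower than in WT in both genotypes, while Junb was higher in LApc, by 1.07, and Jun in LApcL, by 1.29. In enterocyte-like cells 3 were lower in LApc and 2 in LApcL, and 0 were higher. In adenoma-enriched over crypt cells 5 of 7 tested were higher in LApc, led by Atf3 at 5.01. In LApcL 3 of 6 were higher, led by Egr1 at 2.20, and 0 were lower in either genotype. Hspa1a was at 48.5 CPM in WT crypt cells and at 0.134 and 0.0815 in LApc and LApcL. WT thus had more of these heat shock transcripts than either other library, and their part in the Mt1 and Mt2 values was not tested.

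Of 7 oxidative stress genes regulated by Nrf2, Hmox1 and Gclc were higher in enterocyte-like cells of LApc, and 0 of 5 tested were in LApcL. In adenoma-enriched over crypt cells 1 of 5 tested passed in each genotype, Nqo1, lower by -2.73 in LApc and -1.31 in LApcL. Hmox1, which degrades heme, was at 83.6 CPM in the Apoa4-high cells of LApc (670 UMIs), at 2.23 in those of LApcL, and had 0 UMIs in those of WT. In Reg1-high cells of LApc it was at 3.02. The cluster with the highest Mt1 was thus also that with Hmox1, and the part of either in the other was not tested. Of 8 copper-handling genes, 0 passed in crypt or enterocyte-like cells as a whole against WT. Within the enterocyte clusters the copper pump Atp7b passed in Apoa4-high cells of LApc, at 1.06, and the pump Atp7a in Fabp6-high cells of LApcL, at -1.98. In adenoma-enriched over crypt cells Atp7a passed at 1.23 and the copper chaperone Atox1 at 1.06 in LApc, and the copper chaperone Cox17 at 1.01 in LApcL.

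Genes with a profile like that of Mt1 and Mt3 were sought over 23 profiles of class or state and library, which share libraries, among 10976 genes, by Pearson's r of log2(CPM + 10). Among the 5 nearest to Mt1 were Mt2 (r = 0.94), Slc20a1 (0.88), Sco2 (0.88) and Trim2 (0.87). Nearest to Mt3 were Sidt1 (0.89), Adamts17 (0.89), Tshz2 (0.85), Dusp1 (0.83) and Nptx2 (0.83). The r between Mt1 and Mt3 was -0.10, and that between Mt3 and Mt4 0.31. The description of the profiles thus put Mt2 beside Mt1 and neither beside Mt3.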

How the data were processed

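EpCAM-positive small-intestinal cells of 1 WT, 1 LApc and 1 LApcL mouse were sequenced as 10x Genomics 3′ libraries. The authors made the deposited counts, whole numbers of UMIs per gene and barcode, with Cell Ranger 2.1.1 on the mm10 (GRCm38) reference, per the submitters' processing notes and the study's methods. The kit version of each library was not given in the sources used here. The files were filtered matrices with 27998 genes.

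From these counts, barcodes with gene numbers outside percentiles 1 to 99 of their library or over 20% mitochondrial UMIs were removed, then those with the highest Scrublet scores (scanpy 1.11.5) at 0.8% per 1000 barcodes. The libraries were integrated with Seurat 5.3.0 in R 4.3.3 (946 features, from which the 7 genes and all gene lists were left out, 20 components, resolution 0.2). Crypt and adenoma cells were separated after a mutual-nearest-neighbour correction with leidenalg 0.10.2, and adenoma states came from clustering each library alone, with S100g-high above 2000 CPM, a limit set after the data were seen. UMIs were summed per class and library and divided by the class total (CPM). Intervals were exact at 95% (Poisson, Clopper-Pearson, or binomial conditional on the sum of both counts). With 1 library for each genotype no test was made, and cells were not used as replicates. A gene was compared at 10 CPM or more on either side. The computation of ratios, intervals and calls was tested on simulated data. python 3.11.15, numpy 2.4.6, scipy 1.17.1, pandas 2.3.3 and matplotlib 3.10.9 were used, and size factors of edgeR 4.0.16 and DESeq2 1.42.0 served as scaling alternatives only.

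The named genes were the 7 members and Mt4, the list genes past 2-fold in a comparison, and the 5 genes nearest in profile to Mt1 and to Mt3. Of those nearest to Mt1, 1 is not reported here. Hmox1, Chgb and Sox17 levels in cell subsets, and the cells rich in Mt3, were chosen after their values were seen. The members, the lists (wider zinc, copper, glucocorticoid-responsive, dissociation and stress, Nrf2) and the comparisons were chosen with earlier results of these data known. Promoter sequences were taken from a RefSeq table for GRCm38.p6. Depth ranged from 79696291 to 191509615 UMIs per library.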

Additional observations from a re-analysis of the deposited data

Results flagged for a closer look

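In 4 cases the same contrast ran in opposite directions in a pair of settings, with the counting intervals on opposite sides of 0. With 1 library for each genotype, none of these differences was tested.

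Slc39a5 had a log2 ratio of LApc over WT of -0.11 in enterocyte-like cells and 0.83 in Paneth-like cells, where the median of all genes was 0.71. With edgeR's factors the Paneth-like value was 0.04. Slc30a2 had a log2 ratio of LApcL over WT of 0.60 in crypt cells and -0.25 in enterocyte-like cells, and both were under 2-fold.

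Mt1 had a log2 ratio of adenoma-enriched over crypt cells of -0.68 in LApc and 0.26 in LApcL. For Mt2 the values were -0.54 and 1.05. The Mt1 level of adenoma-enriched cells was 884 CPM in LApc and 892 in LApcL, and that of the crypt cells was 1413 and 746.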

How the results depend on the processing

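No paired analysis was possible because there was 1 library for each genotype. Of 150 recomputed counts of members past 2-fold or orders of levels, 133 stayed within 1.5 times the value reported, 17 moved and 0 reversed. Of 579 recomputed ratios of single genes, 418 stayed within the counting interval, 161 moved and 0 reversed. Only a member past 2-fold as reported could count as reversed, and an order of levels could not. Settings that redrew only the crypt and adenoma cells left the enterocyte-like and Paneth-like cells unchanged. The values of those classes were then bound to stay, so these counts overstate how far the results were tried. The alternatives without cells holding adenoma transcripts, without the mutual-nearest-neighbour correction and without cells with 10 or more Mt3 UMIs were chosen after seeing the data.

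In enterocyte-like cells of LApcL against WT the count went from 1 to 0 with totals free of ribosomal protein and mitochondrial genes, with more doublets removed, with classes from marker scores, with the mean of per-cell CPM, at 50 CPM and without cells holding adenoma transcripts. In crypt cells of LApcL it was 2 at 1.5-fold, with Slc30a2 added. In Paneth-like cells it was 4 for LApc with the mean of per-cell CPM, and for LApcL 1 with the factors of edgeR or of DESeq2 and 2 at 50 CPM. Between adenoma-enriched cells it was 1 at 50 CPM (Mt3). In adenoma-enriched over crypt cells of LApcL it was 1 (Slc39a5) with either set of factors, with totals free of ribosomal protein and mitochondrial genes and with adenoma cells taken by 3 or more adenoma transcript UMIs. Under that last rule the Wfdc18-high over S100g-high count was 1 (Slc30a2), with Mt3 at 0.52. The causes were not tested.

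The version without the correction was not run for the crypt comparisons with WT and for adenoma over crypt cells, nor the removal of more doublets for Paneth-like LApc cells, nor that of cells with adenoma transcripts for Paneth-like LApcL cells, since a side held under 50 cells. Without replicates, differences between mice of one genotype are unknown, and genes under 10 CPM could not be compared at this depth.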

Other observations

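Goblet-like, enteroendocrine-like and tuft-like cells were compared with WT as well. Mt2 was higher past the threshold in all of them but the tuft-like cells of LApcL, and Mt1 only in goblet-like cells of LApc. The part of transferred RNA in these Mt1 and Mt2 values was not tested. In goblet-like cells Mt1 was at 158 CPM in WT, 353 in LApc and 289 in LApcL, and Mt2 at 24.4, 75.1 and 60.8. Of 5 members tested in LApc against WT, Mt1 was higher by a log2 ratio of 1.16 and Mt2 by 1.62, against 3.35% of all genes. In LApcL, 2 of 6 were higher, Mt2 by 1.32 and Slc30a2 by 2.08 [1.66, 2.51], against 4.27%. Slc30a2 was at 15.7 CPM in goblet-like cells of LApcL and at 3.70 and 3.14 in WT and LApc. The summed adenoma transcripts were at 188 CPM in these cells of LApcL, and their part in the result was not tested.

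In enteroendocrine-like cells Mt2 was higher in LApc by 2.49 and in LApcL by 1.85, and the importer Slc39a5 was lower in both, at 24.5 and 27.5 CPM against 55.5 in WT, ratios of -1.18 and -1.01. Mt3 was at a ratio of 1.56 in LApc, where 2 of 513 cells held 36 of its 75 UMIs. In these comparisons 14.0% and 9.69% of all genes passed. In tuft-like cells of LApcL, Slc39a5 was at 13.1 CPM against 34.5 in WT, a ratio of -1.40, against 8.05% of all genes. The LApc tuft-like cells numbered 71, and there Mt2 was higher by 1.83 and Slc30a1 by 1.52, the latter on 8 UMIs, against 10.6% of all genes.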
